A study of Mus musculus with 6 samples.

Results

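The genes described here were 6 members of the STAT family (signal transducers and activators of transcription), Stat2, Stat3, Stat4, Stat5a, Stat5b and Stat6, in the cortex of mice whose microglia had been depleted. They were taken by gene symbol from the table of 23366 genes, and each symbol matched 1 row. All 6 reached a mean of 0.5 FPKM (fragments counted per length of transcript and per size of library) over the 6 mice, as did 14385 genes in all. The study asked how the cortex responded to acute loss of microglia, with RNA from 3 depleted and 3 littermate control C57BL/6 mice taken on day 10 (d10) after depletion. Depleted mice were CX3CR1-CreERT2+/- iDTR+/-, carrying a Cre recombinase driven by the Cx3cr1 promoter and activated by tamoxifen, together with a diphtheria toxin receptor that Cre switches on. Control mice were CX3CR1-CreERT2+/- without the receptor, so both groups carried the Cre allele, and both received tamoxifen. Toxin was given to deplete microglia, and whether control mice also received it is not given in the sources used here. Cre driven by Cx3cr1 is not restricted to microglia, since other macrophages express this gene. The mice were adult, and no exact age is given in the sources used here. Control mice are called A1, A2 and A3 below, and depleted mice A4, A5 and A6.

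STAT proteins lie latent in the cytoplasm until a cytokine binds its receptor, whose attached Janus kinases (JAKs) then phosphorylate them, and the dimers formed move to the nucleus and activate genes. Different cytokines use different members: type I interferons act through STAT2 with IRF9, the interleukin-6 (IL-6) family through STAT3, interleukin-12 (IL-12) through STAT4, growth hormone, prolactin and interleukin-2 through STAT5A and STAT5B, and interleukin-4 (IL-4) and interleukin-13 through STAT6. SOCS proteins, CISH and USP18 restrain the pathway. In the brain, STAT3 is best known for its part in the reactive state of astrocytes.

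Several properties of the 6 libraries bear on these values. A4 stood apart, with a mean distance (1 minus Pearson's r of log2 values across genes) of 0.0280 to the other 5 libraries, against 0.0149 to 0.0194 for these 5, and the log2 fold changes of the members are given with and without it. The mice were described as sex-matched, but 4 genes of the Y chromosome summed to 5.56 FPKM in A4 and to at most 0.16 in the others, and Xist was at 4.74 FPKM in A3 against 30.9 to 46.7 in the other 5. A3 also held the pituitary transcripts Gh and Prl at 1190.79 and 3548.51 FPKM, whereas no other mouse exceeded 10.82 and 30.91. Defining markers of cortical excitatory neurons were present in every mouse, summing to 383 to 450.4 FPKM in control and 398.4 to 437 in depleted mice. Microglial markers summed to 132 to 158 FPKM in control and 145 to 211 in depleted mice on this day, with 7 of 10 higher in the depleted mean. Of the 10, 4 were higher and 2, Fcrls and P2ry12, were lower in every depleted mouse than in any control mouse. Of all tested genes, 8.21% were higher and 9.38% lower in this way. The median log2 fold change of the microglial markers was 0.13, and -0.0044 without A4. Choroid plexus markers, mostly Ttr, summed to 167 to 324 FPKM in control and 45.2 to 70.7 in depleted mice, and oligodendrocyte markers to 2801 to 3042 and 2453 to 2521. In such bulk tissue, fewer cells of a type and less RNA per cell cannot be told apart. From the steps between low values, libraries were estimated at 13700000 to 20480000 fragments in A1 to A4 and 11180000 in A6, while A5 could not be fixed, since estimates of 10660000 and 4000000 scored nearly alike. No source gives more than 1 library per mouse, so the tests below measure the spread between mice.

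Among the 6 STAT genes, Stat2 was higher in all 3 depleted mice than in any control mouse, by 1.68-fold, and Stat6 was lower in all 3, at 0.792 of the control level, whereas the ranges of the other 4 overlapped. Both folds are on the log2(FPKM + 1) scale used for every log2 fold change here, which understates the change of low genes. None of the 6 passed limma at an adjusted p under 0.1, a threshold that 4 of 14385 genes (0.0278%) passed. At an unadjusted p under 0.05, limma called 1 member higher and 1 lower, against 4.79% of all genes higher and 5.74% lower. Groups that did not overlap were found for 1 member in each direction, against 8.21% of all genes higher and 9.38% lower. With counts of 1 among 6 members, these shares do not set the family apart from the rest of the table.

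**Figure D1:**
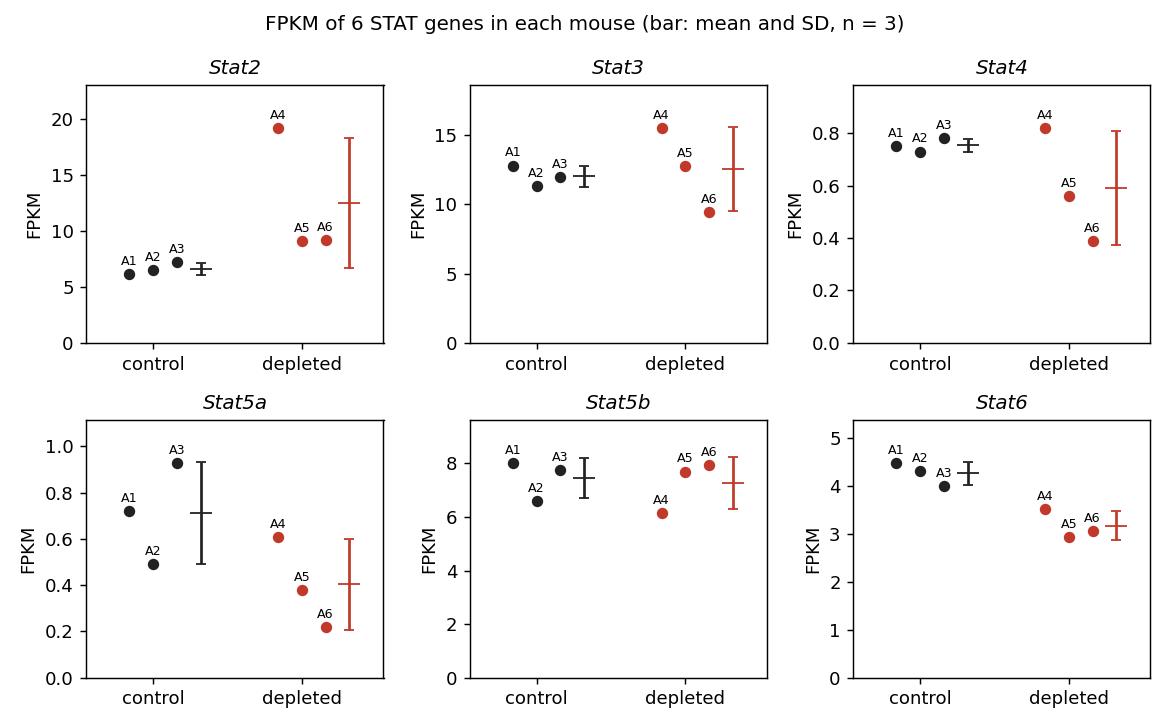
FPKM (vertical axes, each from 0) of 6 STAT genes in 3 control mice (black) and 3 depleted mice (red), 1 point per mouse, with the mean and SD of each group beside the points. Only the panels of Stat2 (6.11 to 7.21 against 9.08 to 19.2) and Stat6 (4.0 to 4.49 against 2.93 to 3.52) show groups that do not overlap.

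Since FPKM is a value per length of transcript, levels can be ordered between genes. By mean FPKM in control mice, Stat3 (12.01) stood first, followed by Stat5b (7.47), Stat2 (6.62), Stat6 (4.27), Stat4 (0.753) and Stat5a (0.713). Stat5b and Stat2 overlapped in their ranges, as did Stat4 and Stat5a, and no other neighbours in this order overlapped. Stat2 held the third place in every control mouse, the second in A5 and A6, and the first in A4. The fragments behind these values, estimated from the longest coding transcript and leaving out A5, numbered 640 to 1400 for Stat3, 440 to 741 for Stat5b, 400 to 1157 for Stat2 and 130 to 333 for Stat6. They numbered only 13 to 45 for Stat4 and 10 to 66 for Stat5a, so the values of these 2 genes are the least precise.

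Promoter sequences are shown for the members whose groups did not overlap, Stat2 and Stat6, and for the 1 other member whose window held a motif match, Stat4. Each window runs 5′ to 3′ along the gene, from 250 bases before to 50 bases after a RefSeq transcription start on GRCm38.p6, and capitals mark matches to the motifs searched. These were the interferon-stimulated response element core (TTTC, any 2 bases, TTTC) and the STAT motif TTC and GAA with any 3 or any 4 bases between them, the wider spacing being that preferred by STAT6, each searched on both strands. Matches are a description of letters, not binding sites.
Stat2 promoter, chr10:128270248-128270547, plus strand: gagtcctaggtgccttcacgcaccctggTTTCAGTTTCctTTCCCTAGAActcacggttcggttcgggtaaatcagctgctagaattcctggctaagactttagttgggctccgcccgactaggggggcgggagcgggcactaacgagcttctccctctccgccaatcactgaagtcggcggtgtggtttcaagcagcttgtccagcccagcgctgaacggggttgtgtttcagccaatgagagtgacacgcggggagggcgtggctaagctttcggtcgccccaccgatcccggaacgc
Stat6 promoter, chr10:127642736-127643035, plus strand: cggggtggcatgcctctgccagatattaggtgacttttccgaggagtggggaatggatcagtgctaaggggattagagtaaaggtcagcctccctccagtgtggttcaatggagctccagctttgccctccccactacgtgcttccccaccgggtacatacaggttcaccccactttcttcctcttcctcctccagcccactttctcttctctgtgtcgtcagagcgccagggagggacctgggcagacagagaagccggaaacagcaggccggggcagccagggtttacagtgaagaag
Stat4 promoter (second start), chr1:52007990-52008289, plus strand: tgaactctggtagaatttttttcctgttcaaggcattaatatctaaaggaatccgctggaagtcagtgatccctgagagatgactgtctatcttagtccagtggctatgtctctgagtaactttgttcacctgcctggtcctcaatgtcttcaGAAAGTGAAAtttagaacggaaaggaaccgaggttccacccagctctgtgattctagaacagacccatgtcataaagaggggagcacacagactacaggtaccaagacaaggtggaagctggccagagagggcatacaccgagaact
The Stat2 window held the response element core as TTTCAGTTTC, with its first base at -222 relative to the start, and the wider STAT motif as TTCCCTAGAA, at -210, with no overlap between them. The second Stat4 window held GAAAGTGAAA, the same core read on the other strand, with its first base at -97. None of the 3 patterns was found in the Stat6 window or in the other 6 of the 9 windows that RefSeq gives for these genes. Among all 32851 promoter windows of this length, 3.44% held the response element core, 8.30% the STAT motif with 3 bases between and 6.95% that with 4.

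Stat2 lies on chromosome 10, at chr10:128270559-128292849 on the plus strand (GENCODE M21, GRCm38, a build other than that of the authors), and its protein joins IRF9 in the complex that carries type I interferon signals to DNA. Control mice held 6.11, 6.55 and 7.21 FPKM of Stat2, against 19.2 in A4, 9.08 in A5 and 9.22 in A6. All depleted mice lay above all control mice, A4 far above, while A5 and A6 nearly coincided. The mean was 6.62 ± 0.554 FPKM in control and 12.5 ± 5.80 in depleted mice (SD, n = 3 each), a ratio of 1.89. The log2 fold change was 0.75 (SE 0.248, 95% interval 0.18 to 1.31, limma adjusted p = 0.396), and its unadjusted limma p was 0.0160. An exact two-sided permutation test of log2(FPKM + 1) gave p = 0.1, the smallest that 3 against 3 mice allow. Without A4 the log2 fold change was 0.42 (95% interval 0.18 to 0.66, limma adjusted p = 0.230), with an unadjusted limma p of 0.00423, and A5 and A6 deviated from the control mean by 0.41 and 0.43. On the log2 scale, the depleted mice had an SD of 0.573, against 0.104 in control mice and a median over all tested genes of 0.171 in depleted and 0.0954 in control mice. By log2 fold change Stat2 ranked 140 from the highest of 14385 genes. Microglial markers also summed highest in A4, at 211 FPKM, against 145 in A5, 186 in A6 and 132 to 158 in control mice, and their part in the higher Stat2 was not tested.

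Because every member was measured in the same library, Stat2 was also set against others within each mouse, a choice made after its values were seen. The ratio of Stat2 to Stat3 was 0.478, 0.579 and 0.604 in control mice and 1.24, 0.714 and 0.974 in A4, A5 and A6. The ratio of Stat2 to Stat5b was 0.761, 0.991 and 0.929 in control mice and 3.12, 1.18 and 1.16 in depleted mice. The ratio of Stat2 to Stat6 was 1.36, 1.52 and 1.80 in control mice and 5.45, 3.10 and 3.003 in depleted mice. In each of these, every depleted mouse lay above every control mouse, A4 the furthest. These ratios rest on the same Stat2 values, and the ratio to Stat6 had to separate the groups, because Stat2 was higher and Stat6 lower in every depleted mouse, so they are given as descriptions with no test. The ratio to Stat6 had the widest relative gap between the groups, 1.56 ± 0.224 in control against 3.85 ± 1.39 in depleted mice (SD, n = 3), since its numerator was higher and its denominator lower.

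**Figure D2:**
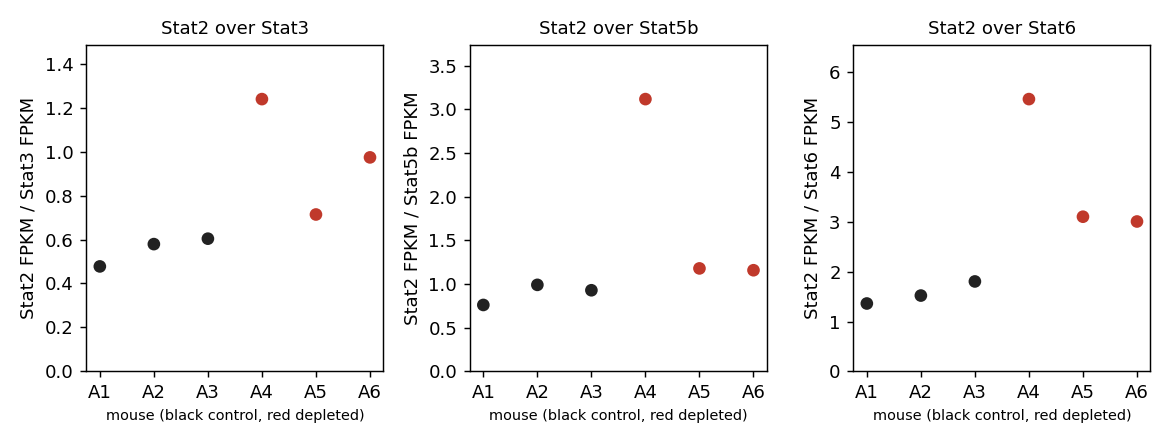
Ratio of Stat2 FPKM to that of Stat3, Stat5b and Stat6 (vertical axes, each from 0) in each of 3 control mice (black) and 3 depleted mice (red), 1 point per mouse. All 3 red points lie above all 3 black points in each panel, at 3.003 to 5.45 against 1.36 to 1.80 for the ratio to Stat6.

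The genes around Stat2 were nearly silent. Apof ends 405 bases before Stat2 and Il23a lies 3289 bases after it, and neither reached the mean of 0.5 FPKM needed for a test. The 5 genes closest to Stat2 in their deviation from the control mean over the 6 mice were Mcm6, Eif2ak2, Snhg12, Pld4 and Ifi30, at root mean square distances of 0.121 to 0.141 on the log2 scale. Eif2ak2, which encodes the kinase PKR that senses double-stranded RNA, was at 2.34, 2.44 and 2.41 FPKM in control and 9.04, 2.90 and 3.19 FPKM in depleted mice. Mcm6, a subunit of the replicative helicase, was at 2.66, 2.77 and 3.41 FPKM in control and 8.89, 4.81 and 3.51 FPKM in depleted mice. In both, A4 was the highest of the 6 mice and the groups did not overlap, as choosing genes for their likeness to Stat2 nearly fixed.

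Stat3, on chromosome 11 at chr11:100885098-100939540 (minus strand), encodes the transducer of the IL-6 family. It was the most abundant member in 5 of 6 mice and did not separate the groups. Its values were 12.79, 11.31 and 11.94 FPKM in control and 15.5, 12.72 and 9.47 FPKM in depleted mice. A4 lay above and A6 below all control mice, and A5 lay within their range. The mean was 12.01 ± 0.743 FPKM in control and 12.6 ± 3.02 in depleted mice (SD, n = 3), and the log2 fold change was 0.037 (SE 0.158, 95% interval -0.33 to 0.40, limma adjusted p = 0.954). Its sign turned with the mice included, to -0.12 without A4, while without A6 it was 0.21. The exact permutation test gave p = 0.9. The interval is wide, so equal levels were not shown.

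Stat4, at chr1:51987148-52107189 (plus strand), transduces IL-12 signals in T and natural killer cells, and was among the 2 lowest members in every mouse. It was at 0.75, 0.73 and 0.78 FPKM in control and 0.82, 0.56 and 0.39 FPKM in depleted mice. A4 lay above all control mice and the other 2 below them, so the groups overlapped. The log2 fold change was -0.15 (SE 0.165, 95% interval -0.53 to 0.23, limma adjusted p = 0.773), against -0.25 without A4 and -0.057 without A6. With a pseudocount of 0.1 in place of 1 it was -0.35, still with no call. Markers of T and natural killer cells, the cells in which this gene is best known, summed to 2.73 to 3.33 FPKM in control and 2.16 to 3.78 in depleted mice. Only 1 of these 8 markers, Cd4, reached the mean needed for a test, and 1 was at 0 in every mouse. Of the 75-base windows of the longest coding Stat4 transcript, 25.9% also occur in the annotated transcript Gm28177, so reads there could have been divided between them.

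Stat5a and Stat5b encode a pair of closely related proteins that serve growth hormone, prolactin and interleukin-2 family receptors, and lie 8626 bases apart on chromosome 11, pointing away from each other. Stat5a (chr11:100859351-100885169, plus strand) was at 0.72, 0.49 and 0.93 FPKM in control and 0.61, 0.38 and 0.22 FPKM in depleted mice. Stat5b (chr11:100780731-100850724, minus strand) was at 8.03, 6.61 and 7.76 FPKM in control and 6.16, 7.70 and 7.96 FPKM in depleted mice. Stat5a was low in A5 and A6 but overlapped the control range through A4, and for Stat5b it was A4 that lay below all control mice. The mean of Stat5a was 0.713 FPKM in control and 0.403 in depleted mice. It thus reached the mean needed for a test only through the control mice, which fixed its direction. The log2 fold change of Stat5a was -0.29 (SE 0.185, 95% interval -0.71 to 0.13, limma adjusted p = 0.608), -0.39 without A4, -0.19 without A6, -0.73 with a pseudocount of 0.1 and -0.48 after rescaling to TPM, in which every library has the same total, with no call in any of these. That of Stat5b was -0.036 (SE 0.127, 95% interval -0.33 to 0.25, limma adjusted p = 0.942), and it was positive without A4 (0.064) or without A1 (0.012). The 2 transcripts share 387 windows of 75 bases, 10.1% of those of Stat5a and 7.53% of those of Stat5b, and how shared reads were divided was not tested. Their summed FPKM still depends on that division, because the longest coding transcripts differ in length (3888 and 5213 bases), and was 8.75, 7.10 and 8.69 FPKM in control and 6.77, 8.08 and 8.18 FPKM in depleted mice (exact permutation p = 0.5). Stat5a supplied 8.23, 6.90 and 10.7% of this sum in control mice and 9.01, 4.70 and 2.69% in A4, A5 and A6, ranges that overlapped (exact permutation p = 0.3).

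The 3 members on chromosome 11 lie side by side, and the ends of Stat5a and Stat3 overlap by 72 bases on opposite strands. The strand of the libraries is not given in the sources used here, so reads in that overlap cannot be assigned to either gene. The neighbour on the far side of Stat5b, Ghdc, was at 3.08, 3.87 and 2.90 FPKM in control and 2.53, 2.45 and 1.60 FPKM in depleted mice, lower in every depleted mouse. Its log2 fold change was -0.43 (limma adjusted p = 0.438), and -0.51 without A4.

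Stat6, at chr10:127642986-127660957 (plus strand), encodes the transducer of IL-4 and interleukin-13. It was the 1 member lower in all depleted mice. Its values were 4.49, 4.31 and 4.0 FPKM in control and 3.52, 2.93 and 3.07 FPKM in depleted mice. Here A4 was the depleted mouse closest to the control range, so the difference did not rest on it. The mean was 4.27 ± 0.248 FPKM in control and 3.17 ± 0.308 in depleted mice (SD, n = 3), a ratio of 0.744. The log2 fold change was -0.34 (SE 0.119, 95% interval -0.61 to -0.065, limma adjusted p = 0.407), and -0.40 without A4. The exact two-sided permutation test gave p = 0.1, the smallest possible. The unadjusted limma p was 0.0208, and it was 0.0828 without A1, 0.0626 without A2 and 0.0525 without A5. Stat6 ranked 688 from the lowest log2 fold change of 14385 genes. Oligodendrocyte markers also were lower in depleted mice, 5 of 5 by their means and 3 of them without overlap, against 9.38% of all genes, as were choroid plexus markers (5 of 5, of which Ttr alone did not overlap), and their part in the lower Stat6 was not tested.

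Stat6 and its neighbour Nab2, a corepressor on the opposite strand, overlap by 40 bases at their ends. Nab2 was at 13.97, 16.97 and 14.54 FPKM in control and 19.17, 14.20 and 15.18 FPKM in depleted mice, and its groups overlapped. The 5 genes closest to Stat6 in their deviation from the control mean were Cecr5, 1810055G02Rik, Cdh11, Mthfd2 and Fjx1, at root mean square distances of 0.0309 to 0.0488 over 6 mice. Cecr5, the closest, was at 14.46, 14.80 and 14.07 FPKM in control and 12.27, 10.53 and 11.09 FPKM in depleted mice. Cdh11, which encodes a cadherin, was at 12.96, 12.55 and 11.42 FPKM in control and 9.94, 9.10 and 9.74 FPKM in depleted mice. As in Stat6, A4 was the highest depleted mouse and all 3 lay below the control mice, which the choice by likeness nearly fixed.

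**Figure D3:**
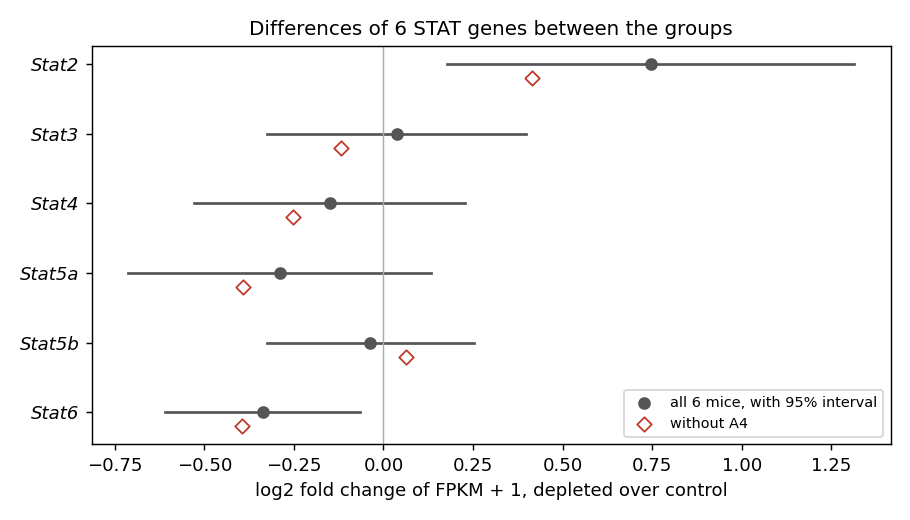
Log2 fold change of FPKM + 1, depleted over control (horizontal axis), for 6 STAT genes from limma, as points with 95% intervals from all 6 mice and as open diamonds without A4. The intervals of Stat2 (0.18 to 1.31) and Stat6 (-0.61 to -0.065) exclude 0, and leaving out A4 moves Stat2 to 0.42 and Stat6 to -0.40.

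The rest of the pathway was read through lists of genes grouped by role, some of which hold the same gene. No gene of any list passed limma at an adjusted p under 0.1. The median log2 fold change over all tested genes was -0.0085, and stands as the background for the medians below. Of 27 cytokine and hormone ligands, only 6 were tested, none of them at an unadjusted limma p under 0.05, and their median log2 fold change was -0.039, which became 0.43 without A3. Most of their summed FPKM came from the Gh and Prl of A3, and the log2 fold change of Gh, -2.24, became 0.75 without that mouse. Cntf, a ligand of the IL-6 family and the highest of the list at 0.46, was at 1.23, 1.25 and 1.03 FPKM in control and 1.65, 0.93 and 4.19 FPKM in depleted mice, and the log2 fold change without A6, the highest mouse, was 0.061. As many ligands, 6, were at 0 in every mouse.

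Receptor subunits were balanced in direction, with 12 of 23 tested genes higher and 11 lower. Their median log2 fold change was 0.013, which ranged from 0.00098 (without A3) to 0.064 (without A4) with 1 mouse left out. At an unadjusted limma p under 0.05, 4 of 23 were higher and 1 was lower, against 4.79% and 5.74% of all genes. The 4 include Il2rg, which reached the mean needed for a test only through the depleted mice. The highest was Il2rg, the common gamma chain of the interleukin-2 family, at 0.38, 0.09 and 0.30 FPKM in control and 0.67, 1.21 and 1.21 FPKM in depleted mice (log2 fold change 0.69, SE 0.188, limma adjusted p = 0.370, and 0.82 without A4). Its mean was 0.257 FPKM in control and 1.03 in depleted mice, so its direction was fixed by reaching the mean needed for a test. The lowest was Prlr, the prolactin receptor, at 1.25, 0.85 and 1.15 FPKM in control and 0.77, 0.42 and 0.53 FPKM in depleted mice (log2 fold change -0.41, SE 0.167, limma adjusted p = 0.453, and -0.49 without A4). Neither pair of groups overlapped. The remaining 3, named after their values were seen, were Osmr, the oncostatin M receptor (0.58), Ifngr1, a chain of the interferon-gamma receptor (0.33), and Ghr, the growth hormone receptor (0.32). Prlr is abundant in choroid plexus, and of the 5 markers of that tissue Ttr was at 40.92 to 64.3 FPKM in depleted and 160.05 to 313.68 in control mice, while the groups overlapped for the other 4. Their part in the lower Prlr was not tested.

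The log2 fold changes of the 4 JAK kinases ran from -0.14 for Jak3 to 0.088 for Jak2, and none had an unadjusted limma p under 0.05. Jak1, the most abundant, was at 37.22, 39.55 and 36.93 FPKM in control and 37.85, 37.56 and 36.47 FPKM in depleted mice. Tyk2, which serves interferon and IL-12 receptors, had a log2 fold change of 0.057 (SE 0.108). Among the 5 partners and coactivators, Irf9, the DNA-binding partner of STAT2, was highest, at 5.56, 4.56 and 4.90 FPKM in control and 24.95, 7.17 and 7.88 FPKM in depleted mice. As for Stat2, the groups did not overlap and A4 lay far above A5 and A6. The log2 fold change of Irf9 was 1.04 (SE 0.385, limma adjusted p = 0.418), and 0.51 without A4. The lowest partner was Crebbp, a histone acetyltransferase, at -0.024.

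Inhibitors of the pathway went in both directions, with 11 of 19 tested genes higher, 8 lower and a median log2 fold change of 0.029, which ranged from 0.0081 (without A5) to 0.035 (without A6) with 1 mouse left out. At an unadjusted limma p under 0.05, 3 of 19 were higher and 1 was lower, against 4.79% and 5.74% of all genes, so the lower count is near the background. Usp18, an interferon-induced protease that blocks the interferon receptor, was at 0.69, 0.66 and 0.55 FPKM in control and 22.21, 1.58 and 2.20 FPKM in depleted mice (log2 fold change 1.82, limma adjusted p = 0.440, and 0.82 without A4). The phosphatase gene Ptpn6, named after its values were seen, had a log2 fold change of 0.71 (limma adjusted p = 0.378), 0.50 without A4. Socs3, the feedback inhibitor of STAT3, was at 0.55, 1.30 and 0.85 FPKM in control and 1.75, 0.51 and 0.88 FPKM in depleted mice, with overlapping groups, and Socs1 was too low to be tested.

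Socs2 and Cish, feedback inhibitors that STAT5 induces, differed in opposite directions. Socs2 was at 5.31, 6.78 and 4.52 FPKM in control and 7.04, 7.65 and 6.95 FPKM in depleted mice (log2 fold change 0.34, SE 0.140, limma adjusted p = 0.451, and 0.23 without A3). Cish was at 3.50, 3.69 and 3.46 FPKM in control and 2.27, 2.84 and 2.66 FPKM in depleted mice (log2 fold change -0.34, SE 0.123, limma adjusted p = 0.409, and -0.28 without A4). All depleted mice lay above all control mice for Socs2 and below them for Cish. Over the 7 tested genes of the STAT5 target list, 4 were higher and 3 lower, with a median log2 fold change of 0.0069. This median had no stable sign, at 0.091 without A2, 0.052 without A4, 0.019 without A5, -0.011 without A1, -0.015 without A3 and -0.033 without A6. At an unadjusted limma p under 0.05, Socs2 was the 1 higher and Cish the 1 lower of the 7, against 4.79% and 5.74% of all genes, and Socs2 stayed under 0.05 in 8 of 14 alternatives and Cish in 11 of 14.

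Targets of STAT2 with IRF9, the interferon-stimulated genes, were higher in depleted mice by their means in 25 of 25 tested genes, with a median log2 fold change of 1.45. Of these, 16 were higher at an unadjusted limma p under 0.05, against 4.79% of all genes, and 19 were higher with groups that did not overlap, against 8.21% of all genes. Mx1, Mx2, Oas1a, Oas2, Oasl1, Rsad2, Ifi44 and Parp14 had control means of only 0.123 to 0.49 FPKM. They reached the mean needed for a test only through the depleted mice, which fixed their direction. All of them are among the 25, all but Oasl1 among the 19, and Mx1, Mx2, Oas1a, Rsad2 and Parp14 among the 16. The list median of the deviation from the control mean was 2.78 in A4, 0.66 in A5 and 0.81 for A6, and the median log2 fold change without A4 was 0.66. The highest, Ifit3, which encodes an antiviral protein, was at 11.44, 6.55 and 7.30 FPKM in control and 132.26, 27.8 and 23.44 FPKM in depleted mice (log2 fold change 2.30, SE 0.564, limma adjusted p = 0.370, and 1.53 without A4). The lowest, Ifi35, had a log2 fold change of 0.56, which was 0.048 without A4. Ifnb1, the gene of a type I interferon itself and likewise chosen with its values seen, was listed at 0 in 5 mice and at 0.28 FPKM in A4. Among the target lists this one had the highest median, and in the same mice Stat2 and Irf9 had smaller differences than most of its genes. Microglial markers had the same order of mice, summing to 211 FPKM in A4, 145 in A5 and 186 in A6, against 132 to 158 in control mice. Their part in the higher targets was not tested.

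**Figure D4:**
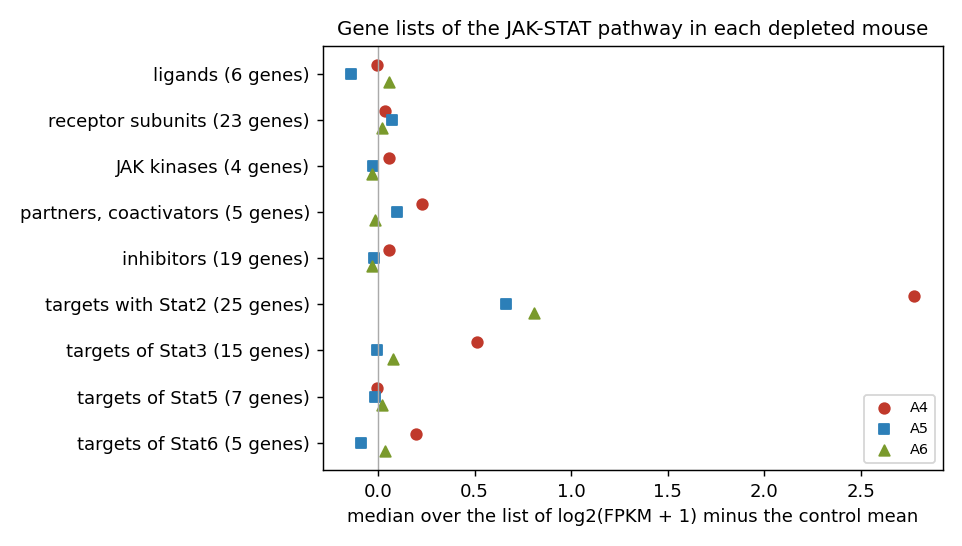
Median over each list of log2(FPKM + 1) minus its control mean (horizontal axis), for 9 lists of JAK-STAT pathway genes in each depleted mouse (A4 circles, A5 squares, A6 triangles), with the number of tested genes in brackets. The targets of STAT2 stand at 2.78, 0.66 and 0.81, whereas the kinases and the targets of STAT5 lie close to 0 in all 3 mice.

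Targets of STAT3 were mixed, with 10 of 15 tested genes higher and 5 lower, and their median log2 fold change of 0.19 became -0.048 without A4 and 0.087 without A3. Among the 10 was Lcn2, which reached the mean needed for a test only through the depleted mice, so its direction was fixed. Timp1, a protease inhibitor and the highest of the list, was at 0.15, 0.38 and 1.77 FPKM in control and 5.20, 0.63 and 2.50 FPKM in depleted mice, with overlapping groups (log2 fold change 1.00, SE 0.487, limma adjusted p = 0.513, and 0.54 without A4). Gfap, the intermediate filament of reactive astrocytes and also named after its values were seen, was at 88.28, 64.48 and 84.21 FPKM in control and 300.31, 108.51 and 120.13 FPKM in depleted mice (log2 fold change 1.00, SE 0.340, limma adjusted p = 0.396, and 0.54 without A4). Vegfa, an angiogenic growth factor and the lowest of the list, was at 18.22, 17.78 and 18.77 FPKM in control and 11.39, 14.48 and 14.23 FPKM in depleted mice (log2 fold change -0.43, SE 0.106, limma adjusted p = 0.370, and -0.33 without A4). The groups overlapped in neither Gfap nor Vegfa, and A4 was the furthest from the control mice in both. Osmr and Birc5, named after their values were seen, were the other 2 higher genes at an unadjusted limma p under 0.05, which makes 3 of 15 higher and 1 lower, against 4.79% and 5.74% of all genes. The astrocyte markers as a whole summed to 1213 to 1358 FPKM in control and 1220 to 1338 in depleted mice, with 6 of 9 lower by their means, but this sum includes Gfap. Without Gfap, the other 8 summed to 1149 to 1270 FPKM in control and 1038 to 1137 in depleted mice, lower in every depleted mouse. Much of this sum was Aldoc, at 514.99 to 573.23 FPKM in control and 465.54 to 488.82 in depleted mice. Of the 8, only Aldoc and Gja1 were lower without overlap, against 9.38% of all genes, and the groups of the rest overlapped. The sum thus does not show a fall across these markers.

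Few targets of the lymphocyte-linked members could be tested. Of 8 targets of STAT4 only the receptor chain Il12rb2 was tested, at a log2 fold change of 0.11 with overlapping groups, which was 0.32 without A4, 0.054 without A5, -0.031 without A3 and -0.040 without A6. Of 12 targets of STAT6, 5 were tested, 3 of them higher and 2 lower, with a median log2 fold change of 0.028, which was 0.18 without A1, 0.11 without A5 and -0.012 without A4. Among the 3 was Mgl2, which reached the mean needed for a test only through the depleted mice, so its direction was fixed. The highest was the chemokine gene Ccl17, at 0.66, 0.66 and 0.74 FPKM in control and 11.77, 1.09 and 2.93 FPKM in depleted mice (log2 fold change 1.48, limma adjusted p = 0.418, and 0.77 without A4). The lowest was Il4ra, the IL-4 receptor chain, at -0.048. Ccl17 was thus higher in every depleted mouse and Stat6 lower in each of them.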

How the data were processed

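Poly(A) RNA of 6 mouse cortices, 3 per group, was sequenced by the authors, aligned with TopHat and quantified with RSEM. The build in the submitters' processing notes is mm9. The deposited values are FPKM after TMM normalization by the authors, given to 2 decimals, so no count test was run. They were tested as log2(FPKM + 1) with limma 3.58.1 in R 4.3.3 (trended empirical Bayes) on the 14385 genes whose mean reached 0.5 FPKM, and p-values were adjusted by Benjamini-Hochberg over all of these. A gene with a mean under 0.5 FPKM in either group passed only through the other group, which fixed the direction of its difference. Besides targets of STAT2, this held for Stat5a, Il2rg, Mgl2 (a target of STAT6) and Lcn2 (a target of STAT3). Single values had exact two-sided permutation tests over mice. Genes named were the 6 members, the highest and lowest tested gene of each pathway list, Irf9, Jak1, Jak2, Tyk2, Socs1, Socs3, Cish, neighbours, and the 5 genes nearest Stat2 and Stat6 in profile. Prl, Xist, Ttr and Cd4 were also named, as properties of the libraries or as markers, and Gm28177 for the windows it shares with Stat4. Gfap, Ptpn6, Ifnb1, Osmr, Ifngr1, Ghr and Birc5 were named after their values were seen. So were Fcrls, P2ry12, Aldoc, Gja1 and the genes named for passing the filter through a single group. Markers of T and natural killer, B and monocyte or neutrophil cells, neurons and endothelium were also summed. The sums were at most 0.71 FPKM for B cells in any mouse, 3.16 to 4.96 in control and 1.53 to 6.74 in depleted mice for monocytes or neutrophils, 1739 to 2022 and 1703 to 1904 for neurons, and 13.0 to 14.9 and 16.3 to 19.2 for endothelium. Members and lists were chosen with earlier results of these data known. Other genes of the family are not reported here. Positions came from GENCODE M21 and promoters from RefSeq, both on GRCm38. Fragment numbers were estimated from genes with 1 transcript. Alternatives covered pseudocount, filter, scaling, variance model and each mouse left out. The limma script was tested on simulated data.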

Additional observations from a re-analysis of the deposited data

How the results depend on the processing

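No member passed an adjusted p under 0.1 in limma under any alternative run (pseudocount 0.1, no filter or a mean of 1 FPKM, TPM, median-of-ratios or quantile scaling, no variance trend, array weights, each mouse left out), but Stat4 and Stat5a could not be tested at a mean of 1 FPKM, which they do not reach. Stat2 stayed higher in 14 of 14 alternatives (log2 fold change 0.42 to 0.92, limma adjusted p 0.230 to 0.892) and Stat6 lower in 14 of 14 (-0.42 to -0.30, limma adjusted p 0.271 to 0.892). Stat4 (-0.35 to -0.057) and Stat5a (-0.73 to -0.19) also kept their sign in the 13 alternatives that tested them. For Stat5a this is no support, since it passed the filter only through the control mice, which fixed its direction. With each mouse left out in turn, some log2 fold changes turned sign, ranging from -0.12 to 0.21 for Stat3, -0.11 to 0.064 for Stat5b, -0.040 to 0.0081 for Jak1, -0.023 to 0.15 for Jak2, -0.26 to 0.021 for Jak3, -0.15 to 0.28 for Socs3, -4.31 to 0.75 for Gh, -0.077 to 0.066 for Crebbp, -0.040 to 0.32 for Il12rb2 and -0.17 to 0.027 for Il4ra. With array weights, Stat3 was at -0.038 and Socs3 at -0.0015. The cause was not tested. No paired analysis was possible, because the labels give no litter or pairing for these littermate groups. With 3 mice a group, and few fragments behind Stat4 and Stat5a, a member without a call was not shown to be unchanged. Differences within the intervals given were not excluded, and no smallest detectable difference was estimated.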
